A study of Mus musculus with 4 samples.

Results

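The choroid plexus epithelium genes are a set of 40 mouse genes known from the cells that line the choroid plexus, a fold of vascular tissue that hangs into the brain ventricles and lies against the hippocampus. The set was a fixed list of gene symbols, and all 40 were found among the 16148 genes of the deposited tables and passed the filter on low signal. Total RNA from hippocampus was sequenced from Tas1r3 knockout mice (KO-WD, 2 libraries) and from wild-type mice (WT-WD, 2 libraries). Mice of both genotypes ate a western diet for 18 weeks, so the groups differ by genotype alone in the labels, and other diets were not analysed here. Tas1r3 encodes the subunit shared by the sweet and umami taste receptors, and the series title places it in cognitive impairment of mice with diet-induced obesity. The labels give no strain, sex or age, do not say how the knockout was made, and do not say whether a library is 1 animal or a pool, so the spread behind each p-value is that of these libraries and may be technical.

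The choroid plexus epithelium makes most of the cerebrospinal fluid. Its cells pump sodium, chloride and bicarbonate into the ventricle, let water follow through aquaporin 1, and release carrier proteins such as transthyretin (Ttr), which moves thyroid hormone and, with its partner, retinol. Tight junctions between the cells form the barrier between blood and cerebrospinal fluid, and the homeobox factor Otx2 is needed to form and keep the tissue in mice.

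Values are the authors' normalized signal in units, summed over the RefSeq transcripts of each gene, and log2 differences are KO-WD minus WT-WD on the log2(signal + 1) scale. Signal is not divided by gene length, so levels are compared between libraries and not between genes. Estimated depth was 13510826 and 12942049 reads in the KO-WD libraries and 11596036 and 15959788 reads in the WT-WD libraries, where 1 read was worth 0.222, 0.231, 0.258 and 0.187 units in the same order. The targeted gene Tas1r3 was at 0.887 and 1.85 units in the KO-WD libraries, against 16.1 and 15.9 units in the WT-WD libraries (log2 difference -2.88, SE 0.34, adjusted p = 0.0813 in limma). Markers of hippocampal neurons were present in every library, with a summed signal of 3263 and 3764 units in the KO-WD libraries and 3076 and 3265 units in the WT-WD libraries. The 4 libraries did not stand equally in the choroid genes. KO-WD replicate 1 was the highest library for 31 of the 40 genes, and WT-WD replicate 2 was the lowest for 33.

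Most choroid plexus genes had a higher mean signal in KO-WD hippocampus, but none passed the test over all genes. The mean log2 value was higher in KO-WD for 35 of the 40 genes (87.5%), against 50.1% of all 15707 genes tested. The KO-WD libraries were both higher than either WT-WD library for 24 (60%), against a background of 17.9%, and both lower for 1, against 18.4%. The median log2 difference was 0.82, beside a median of 2.5e-04 for all genes. The median deviation of the 40 genes in a library had an SD within genotypes of 0.39 on the same log2 scale. In limma, 19 genes had an unadjusted p under 0.05, all higher in KO-WD, against 5.28% of all genes in either direction and 2.38% in that direction. None passed at an adjusted p of 0.05, where the background was 0.0637%. In bulk tissue more epithelial cells in a sample and more RNA per cell cannot be told apart.

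Libraries of the same genotype also differed from each other. The median of the 40 ratios was 1.41 for KO-WD replicate 1 over replicate 2 and 1.39 for WT-WD replicate 1 over replicate 2. Replicate 1 was above replicate 2 for 37 of the 40 genes in KO-WD and for 33 in WT-WD. The corresponding medians across genotypes were 1.71 for KO-WD over WT-WD replicate 1 and 1.94 for replicate 2. The labels do not say whether the replicate numbers pair the libraries. KO-WD replicate 1 was highest and WT-WD replicate 2 lowest together for 28 of the 40 genes (70%), against 8.69% of all genes. KO-WD replicate 2, the lower of the knockout libraries, was above WT-WD replicate 1 for 25. Leaving out KO-WD replicate 1 gave a median log2 difference of 0.49, and leaving out WT-WD replicate 2 gave 0.48; these are the libraries at either extreme. It was 1.04 with KO-WD replicate 2 left out and 1.15 with WT-WD replicate 1 left out.

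**Figure D1:**
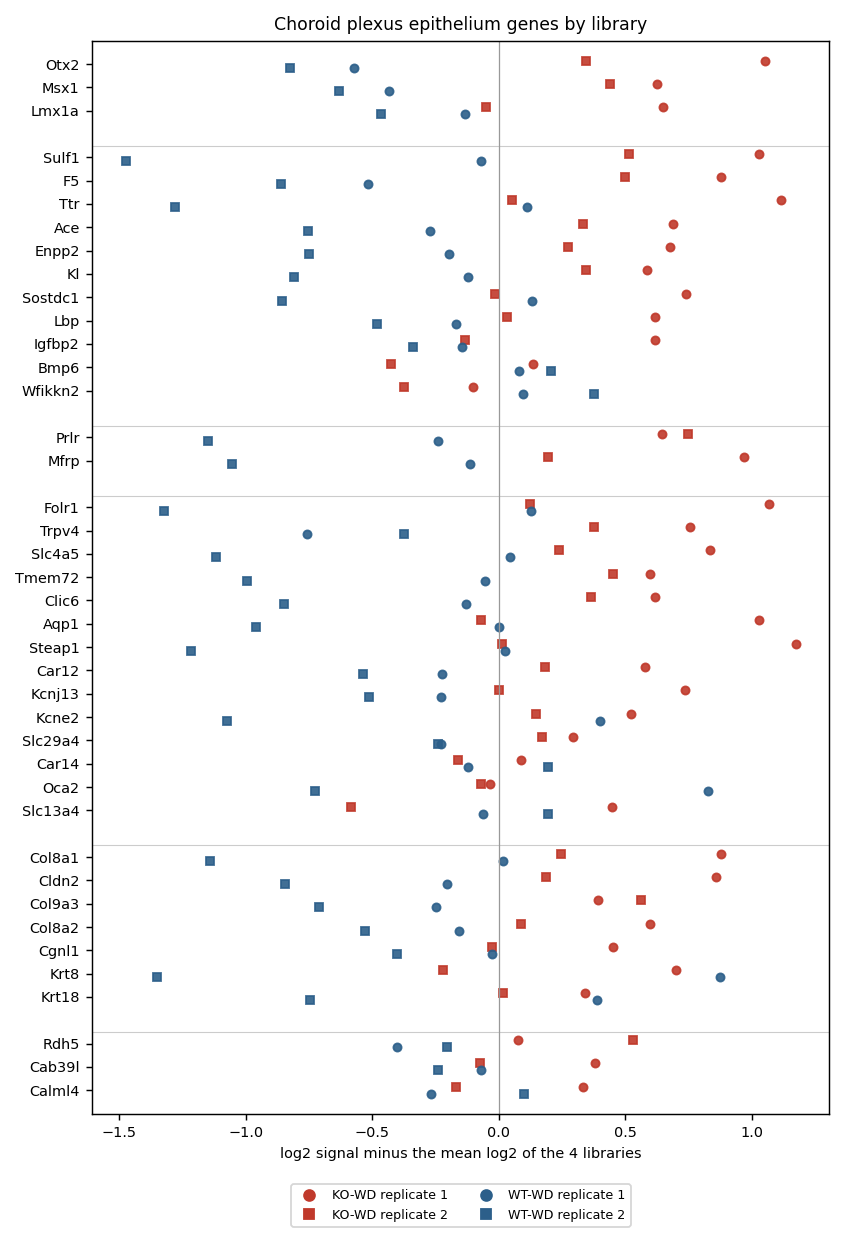
Each row is 1 gene and each point 1 library, placed at its log2 signal minus the mean log2 of the 4 libraries; red marks KO-WD and blue WT-WD, circles replicate 1 and squares replicate 2, and genes are grouped by role from transcription factors at the top to enzymes and adaptors at the bottom. KO-WD replicate 1 (red circles) is rightmost in 31 rows and WT-WD replicate 2 (blue squares) leftmost in 33.

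Among transcription factors, all 3 genes were higher in both KO-WD libraries than in either WT-WD library (background 17.9%). Otx2, the homeobox factor of the choroid plexus, had 51.2 and 31.4 units in the KO-WD libraries, against 16.6 and 13.95 units in the WT-WD libraries. The genotypes did not overlap, and the knockout libraries differed 1.63-fold. The log2 difference was 1.34 (SE 0.27), with an adjusted p of 0.466 in limma. It passed in limma only when KO-WD replicate 2 was left out (adjusted p = 0.0371), over a range of 0.0371 to 0.906 across alternatives. Msx1, a homeobox factor of dorsal midline tissue, had 22.4 and 19.7 units in KO-WD and 10.7 and 9.36 in WT-WD, close within each genotype (log2 difference 1.00, SE 0.24, adjusted p = 0.661). Lmx1a, a factor of the embryonic roof plate and choroid primordium, had low signal, at between 2.25 and 4.88 units in the 4 libraries, from an estimated 11 to 22 reads.

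Of the 11 secreted and extracellular genes, 9 were higher in KO-WD and 7 had both KO-WD libraries above (background 17.9%). Ttr, the transthyretin that makes up much of the epithelium's messenger RNA, had 6440.1 and 3078 units in the KO-WD libraries, against 3212 and 1223 units in the WT-WD libraries. The genotypes overlapped, because WT-WD replicate 1 lay just above KO-WD replicate 2. Its log2 difference of 1.17 therefore had an SE of 0.80 (adjusted p = 0.912), and an exact permutation test of 2 libraries against 2 cannot give a p below 0.333. With 1 library left out the Ttr difference ranged from 0.47, where WT-WD replicate 2 was dropped, to 1.86, where WT-WD replicate 1 was dropped, and Ttr passed in none of these fits. Each library held at least 6521 estimated reads of Ttr, so counting error was small beside this spread.

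F5, coagulation factor V, had the smallest p of the set. Its signal was 172.8 and 133.1 units in the KO-WD libraries, against 65.8 and 51.8 units in the WT-WD libraries. Libraries of a genotype differed by 1.30-fold in KO-WD and 1.27-fold in WT-WD, while the means differed 2.60-fold. The log2 difference was 1.36 (SE 0.19), with an adjusted p of 0.124 in limma. Among the fits with 1 library left out, it passed in limma when KO-WD replicate 1 was dropped (adjusted p = 0.0441) and when KO-WD replicate 2 was dropped (adjusted p = 0.0123), over a range of 0.0123 to 0.766 across alternatives.

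Ace, the angiotensin-converting enzyme, had 464.9 and 363.3 units in KO-WD, against 238.7 and 171.2 in WT-WD (log2 difference 1.02, SE 0.20, adjusted p = 0.53). Kl, the anti-ageing membrane protein klotho that is also shed into cerebrospinal fluid, had 134.4 and 113.8 units in KO-WD, against 82.4 and 51.2 in WT-WD. Both genes kept the genotypes apart. As ratios, the wild-type libraries were further from each other than the knockout ones, at 1.61-fold against 1.18-fold for Kl and 1.39-fold against 1.28-fold for Ace. Enpp2 (autotaxin), the secreted enzyme that makes lysophosphatidic acid, had 3500.1 and 2648 units in KO-WD, against 1912 and 1303 in WT-WD (log2 difference 0.95, SE 0.23). Oligodendrocytes also make Enpp2, and all 11 oligodendrocyte markers measured were lower in KO-WD, with a median log2 difference of -0.41; their part in the Enpp2 value was not tested. Sulf1, an extracellular heparan sulfate sulfatase, had 379.6 and 266.2 units in KO-WD, against 177.6 and 67.1 in WT-WD. It had the largest log2 difference of the 40 genes (1.53) but an SE of 0.66, as the wild-type libraries differed 2.65-fold.

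Igfbp2, an insulin-like growth factor binding protein also made by meninges and glia, had 219.1 and 130.1 units in KO-WD, against 129.1 and 113.1 in WT-WD. KO-WD replicate 2 and WT-WD replicate 1 were thus nearly level. Lbp, the lipopolysaccharide-binding protein, had 44.99 and 30.0 units in KO-WD, against 26.1 and 21.0 in WT-WD (log2 difference 0.63, SE 0.25). Sostdc1, a secreted inhibitor of BMP and Wnt signalling, overlapped between genotypes at 28.4 and 16.8 units in KO-WD, against 18.6 and 9.39 in WT-WD. Of this group Bmp6 and Wfikkn2 had the lower mean in KO-WD. Bmp6, a growth factor of the BMP family, had 42.5 and 28.8 units in KO-WD, against 40.8 and 44.6 in WT-WD. Wfikkn2, a secreted protein that binds myostatin and GDF11, was the single gene of the 40 with both KO-WD libraries below, at 8.11 and 6.71 units against 9.30 and 11.3 in WT-WD.

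**Figure D2:**
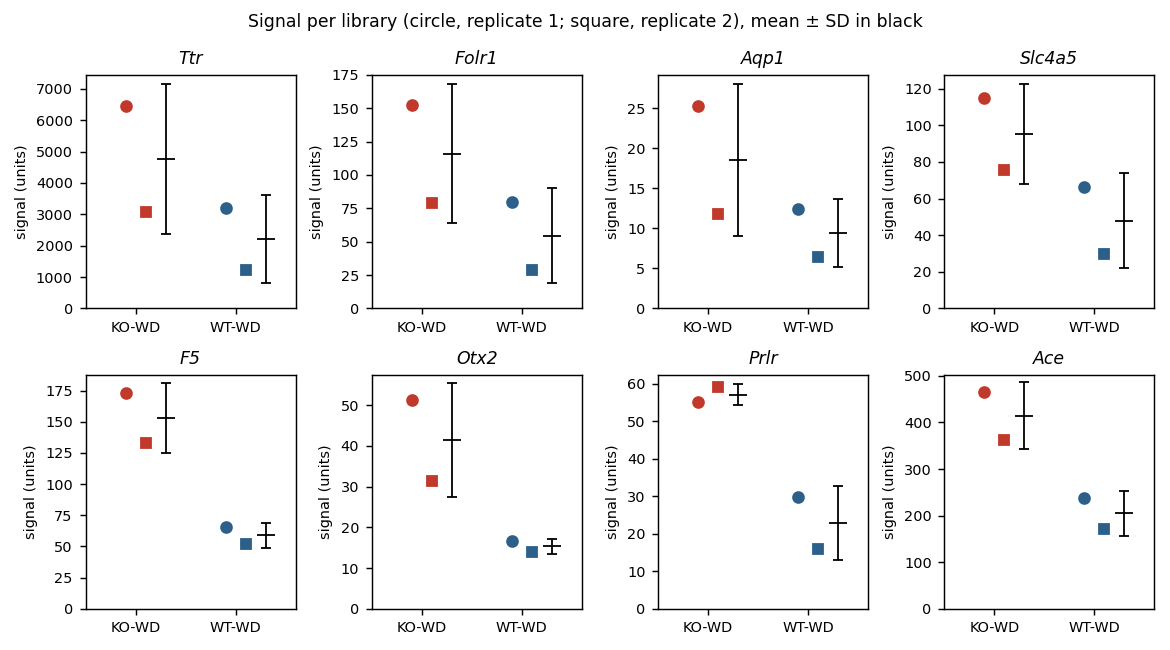
Signal in units for 8 of the genes, with KO-WD (red) left of WT-WD (blue), circles for replicate 1, squares for replicate 2 and black bars for mean ± SD of 2 libraries. In the upper row Ttr, Folr1 and Aqp1 have WT-WD replicate 1 level with KO-WD replicate 2 or above it, and Slc4a5 keeps them apart at 75.8 against 66.3 units; in the lower row F5, Otx2, Prlr and Ace have both KO-WD libraries clear of both WT-WD libraries.

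Both receptors of the set were higher in both KO-WD libraries (background 17.9%). Prlr, the prolactin receptor, had 55.1 and 59.2 units in the KO-WD libraries, against 29.8 and 15.9 in the WT-WD libraries, and was 1 of 3 genes highest in KO-WD replicate 2 (log2 difference 1.35, SE 0.30, adjusted p = 0.637). Mfrp, a membrane frizzled-related protein also known from the retinal pigment epithelium, had 87.97 and 51.5 units in KO-WD, against 41.6 and 21.7 in WT-WD. The genotypes did not overlap, with 1.71-fold between the knockout libraries and 1.92-fold between the wild-type ones (log2 difference 1.14, SE 0.42).

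Of the 14 channels, transporters and carbonic anhydrases, 11 were higher in KO-WD and 7 had both KO-WD libraries above (background 17.9%). Clic6, an intracellular chloride channel protein, had 148.7 and 124.7 units in KO-WD, against 88.6 and 53.8 in WT-WD (log2 difference 0.97, SE 0.25, adjusted p = 0.825). Slc4a5, a sodium bicarbonate cotransporter of the epithelium, had 114.7 and 75.8 units in KO-WD, against 66.3 and 29.6 in WT-WD. Kcnj13, an inwardly rectifying potassium channel, had 113.3 and 68.1 units in KO-WD, against 58.0 and 47.7 in WT-WD (log2 difference 0.73, SE 0.26). In all 3 the lowest knockout library was above the highest wild-type one.

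Car12, a membrane carbonic anhydrase, had 238.9 and 181.98 units in KO-WD, against 137.0 and 110.5 in WT-WD (log2 difference 0.76, SE 0.17). Trpv4, an osmosensitive cation channel, had 30.6 and 23.5 units in KO-WD, against 10.7 and 13.99 in WT-WD (log2 difference 1.07, SE 0.25). Tmem72, a transmembrane protein, had 21.5 and 19.4 units in KO-WD, against 13.7 and 7.13 in WT-WD. Slc29a4, a transporter of monoamines and adenosine, had close replicates, with 95.7 and 87.9 units in KO-WD, against 66.7 and 66.1 in WT-WD (log2 difference 0.46, SE 0.14, adjusted p = 0.848). These 4 genes also kept the genotypes apart.

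Folr1, the folate receptor that carries folate across the epithelium, overlapped between genotypes, with 152.6 and 79.3 units in KO-WD, against 79.5 and 29.1 in WT-WD. Its order of libraries was that of Ttr, as it also was for the water channel Aqp1, the potassium channel subunit Kcne2 and the metalloreductase Steap1. Aqp1 lay between 6.38 and 25.3 units, Kcne2 between 3.66 and 11.1 and Steap1 between 1.31 and 6.87 units over the 4 libraries. In all, 8 of the 40 genes, Ttr included, ran in the order KO-WD replicate 1, WT-WD replicate 1, KO-WD replicate 2, WT-WD replicate 2 (20%, against 4.19% of all genes).

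3 transport genes had no higher signal in KO-WD. Slc13a4, a sulfate transporter, had 80.5 and 39.4 units in KO-WD, against 56.6 and 67.6 in WT-WD (log2 difference -0.13, SE 0.36). Oca2, a melanosomal transport protein, had 278.7 and 271.97 units in KO-WD, against 505.6 and 172.7 in WT-WD, so that the wild-type libraries enclosed the knockout ones (log2 difference -0.10, SE 0.70). Car14, a membrane carbonic anhydrase also made by other brain cells, lay between 38.2 and 45.3 units in KO-WD, against 39.2 and 48.9 in WT-WD.

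All 7 genes of junctions, keratins and collagens were higher in KO-WD on the mean, and 4 had both KO-WD libraries above (background 17.9%). Col9a3, a chain of type IX collagen, had 121.7 and 136.7 units in KO-WD, against 78.1 and 56.7 in WT-WD (log2 difference 0.94, SE 0.18, adjusted p = 0.429). Cldn2, a claudin that forms cation pores in leaky tight junctions, had 25.0 and 15.7 units in KO-WD, against 12.0 and 7.71 in WT-WD. Col8a1 and Col8a2 encode the chains of type VIII collagen, a collagen of basement membranes. Col8a1 had 84.2 and 54.4 units in KO-WD, against 46.5 and 20.8 in WT-WD, and Col8a2 had 41.9 and 29.4 units in KO-WD, against 24.8 and 19.2 in WT-WD. Cgnl1 (paracingulin), a junction scaffold, had 80.5 and 57.7 units in KO-WD, against 57.8 and 44.6 in WT-WD, so that KO-WD replicate 2 and WT-WD replicate 1 coincided. The keratin pair of simple epithelia did not separate the genotypes, since WT-WD replicate 1 was the highest library for both: Krt8 lay at 10.1 and 5.32 units in KO-WD, against 11.4 and 2.43 in WT-WD, and Krt18 at 17.95 and 14.3 units in KO-WD, against 18.6 and 8.47 in WT-WD.

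Of the 3 enzymes and adaptors, Rdh5 alone kept the genotypes apart, with both KO-WD libraries above (background 17.9%). Rdh5, a retinol dehydrogenase, had 37.4 and 51.2 units in KO-WD, against 26.8 and 30.8 in WT-WD (log2 difference 0.59, SE 0.21). Cab39l, a scaffold of the kinase that activates AMPK-family kinases, had 151.2 and 110.5 units in KO-WD, against 110.7 and 98.4 in WT-WD. Calml4, a calmodulin-like protein, lay between 11.5 and 17.4 units over the 4 libraries with no order by genotype.

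**Figure D3:**
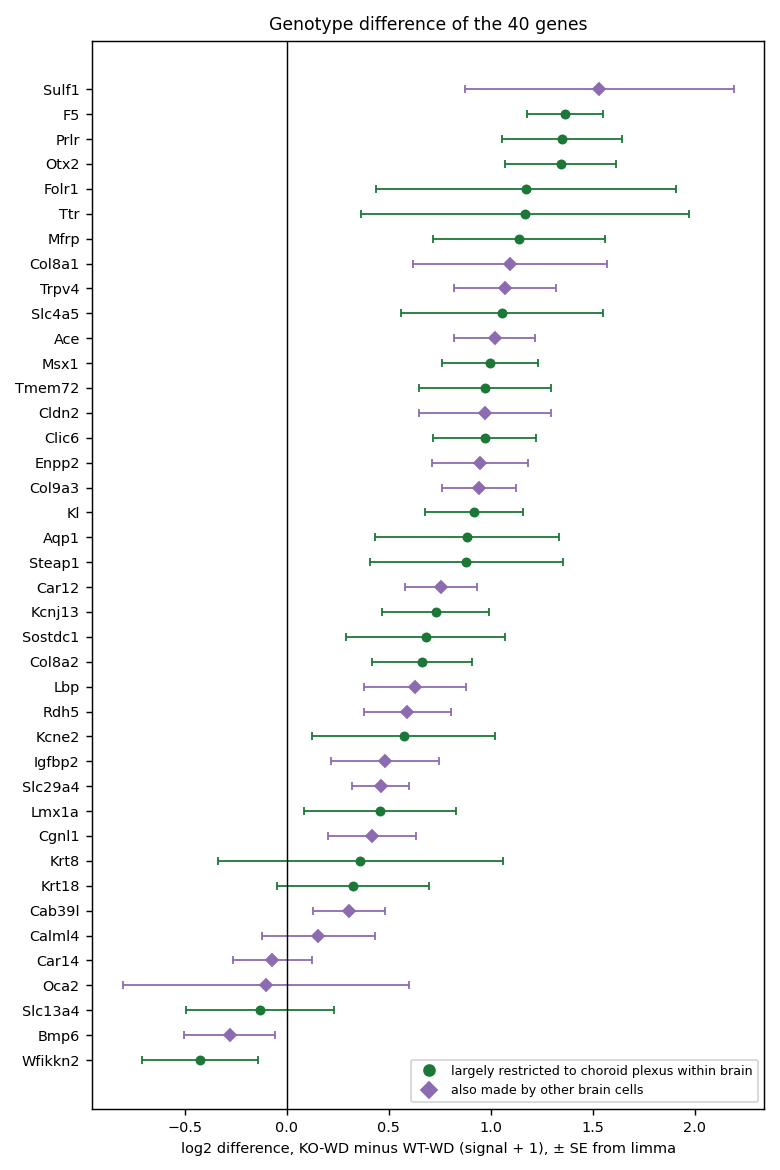
Log2 difference (KO-WD minus WT-WD, of signal + 1) of each of the 40 genes with its SE from limma, ordered by size. Green circles mark the 22 genes assigned by hand as largely restricted to choroid plexus within brain. Purple diamonds mark the 18 assigned as also made by other brain cells. Differences run from -0.42 for Wfikkn2 to 1.53 for Sulf1, and the longest SE bars of the upper rows belong to Ttr, Folr1 and Sulf1.

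Genes were also divided by hand, from general knowledge, by where else in brain they are made. The 22 genes largely restricted to choroid plexus had a median log2 difference of 0.90, with 20 higher in KO-WD and 12 with both KO-WD libraries above. The 18 genes also made by glia, neurons, vessels or meninges had a median of 0.61, with 15 higher and 12 with both above. Over all genes, 50.1% were higher and 17.9% had both KO-WD libraries above. The restricted genes ranged more widely among the libraries, with a median ratio of highest to lowest library of 3.02, against 2.15 for the others. Ttr spanned 5.27-fold, Folr1 and Steap1 both 5.24-fold and Sulf1 5.66-fold, and Sulf1 was the only gene of the 40 with a wider range than Ttr. Car14, Calml4 and Slc29a4 spanned 1.28-fold, 1.52-fold and 1.45-fold.

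To compare the genes at a given level of Ttr, each gene was divided by Ttr of the same library. Folr1 held a nearly fixed ratio to Ttr, at 23.7 and 25.8 units per 1000 units of Ttr in the KO-WD libraries and 24.8 and 23.8 in the WT-WD libraries, while its own level spanned 5.24-fold. Its scaled log2 difference was 0.0058, with an SE of 0.07 from its own spread. The low-signal gene Steap1 held a ratio nearly as narrow, at 1.07 and 0.999 units per 1000 units of Ttr in KO-WD and 0.965 and 1.07 in WT-WD. F5 had 26.8 and 43.3 units per 1000 units of Ttr in KO-WD, against 20.5 and 42.4 in WT-WD, so that replicate 2 of each genotype was the higher and the genotypes overlapped (scaled log2 difference 0.19, own SE 0.63). Enpp2 had 543.5 and 860.3 units per 1000 units of Ttr in KO-WD, against 595.3 and 1065 in WT-WD (-0.22, own SE 0.53). Sulf1 was the single gene of the set with both KO-WD ratios above both WT-WD ratios, at 58.95 and 86.5 against 55.3 and 54.9 (0.36, own SE 0.28). Slc13a4 had the opposite order, at 12.5 and 12.8 in KO-WD against 17.6 and 55.3 in WT-WD (-1.30, own SE 0.82).

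Scaling to Ttr left no gene of the set different between genotypes by the test. Of the 39 genes other than Ttr, 34 were lower in KO-WD per unit of Ttr, against 99.3% of all genes, and the median scaled log2 difference was -0.41, against -1.17 for all genes. Both KO-WD ratios were below both WT-WD ratios for 9 of the 39 (23.1%), against a background of 40.1%, and above them for 1, against 0.0637%. In limma 0 of the 39 had an unadjusted p under 0.05 (background 0.649%), and 0 passed over all genes (background 0%). The SE of the fitted ratios was near 1.15 for F5, Folr1, Sulf1 and Slc13a4 alike, because the spread of Ttr enters every ratio and so sets the spread shared across genes. With each ratio set against its own spread instead, 0 of the 39 passed as well, with 0 at an unadjusted p under 0.05 (background 0.503%). The median of -0.41 was -0.22 with KO-WD replicate 1 left out and -0.66 with KO-WD replicate 2 left out. It was -0.73 with WT-WD replicate 1 left out and 0.015 with WT-WD replicate 2 left out, so its sign rested on the last of these libraries.

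WT-WD replicate 2 had the least Ttr and the highest ratio to Ttr for 29 of the 39 genes, and KO-WD replicate 1, with the most Ttr, had the lowest ratio for 30. A gene with a steady level takes this order from the division by Ttr alone. The share of all genes with this order was not counted, while 99.3% of all genes were lower in KO-WD per unit of Ttr. Bmp6 and Car14, which are also made outside the epithelium, are examples of that order. So are Slc13a4, given above, and Wfikkn2, which were assigned by hand to the restricted genes. Wfikkn2 was at 1.26 and 2.18 units per 1000 units of Ttr in KO-WD, against 2.89 and 9.22 in WT-WD. Bmp6 was at 6.60 and 9.36 units per 1000 units of Ttr in KO-WD, against 12.7 and 36.5 in WT-WD, and Car14 at 7.04 and 12.4 in KO-WD, against 12.2 and 39.96 in WT-WD. The scaled median was -0.56 for the genes also made by other brain cells and -0.28 for the restricted genes other than Ttr. When the reference was the mean of 6 restricted genes (Clic6, Folr1, Kcnj13, Kcne2, Sostdc1 and Tmem72) in place of Ttr, 17 of the remaining 34 genes were higher in KO-WD, with a median of -0.032, against 1.55% of all genes. Of the 34, 7 had both KO-WD ratios above (background 0.299%) and 10 had both below (background 64.3%). In limma 0 had an unadjusted p under 0.05 (background 3.62%) and 0 passed over all genes (background 0.108%). All genes had a median of -0.85 on that scale.

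**Figure D4:**
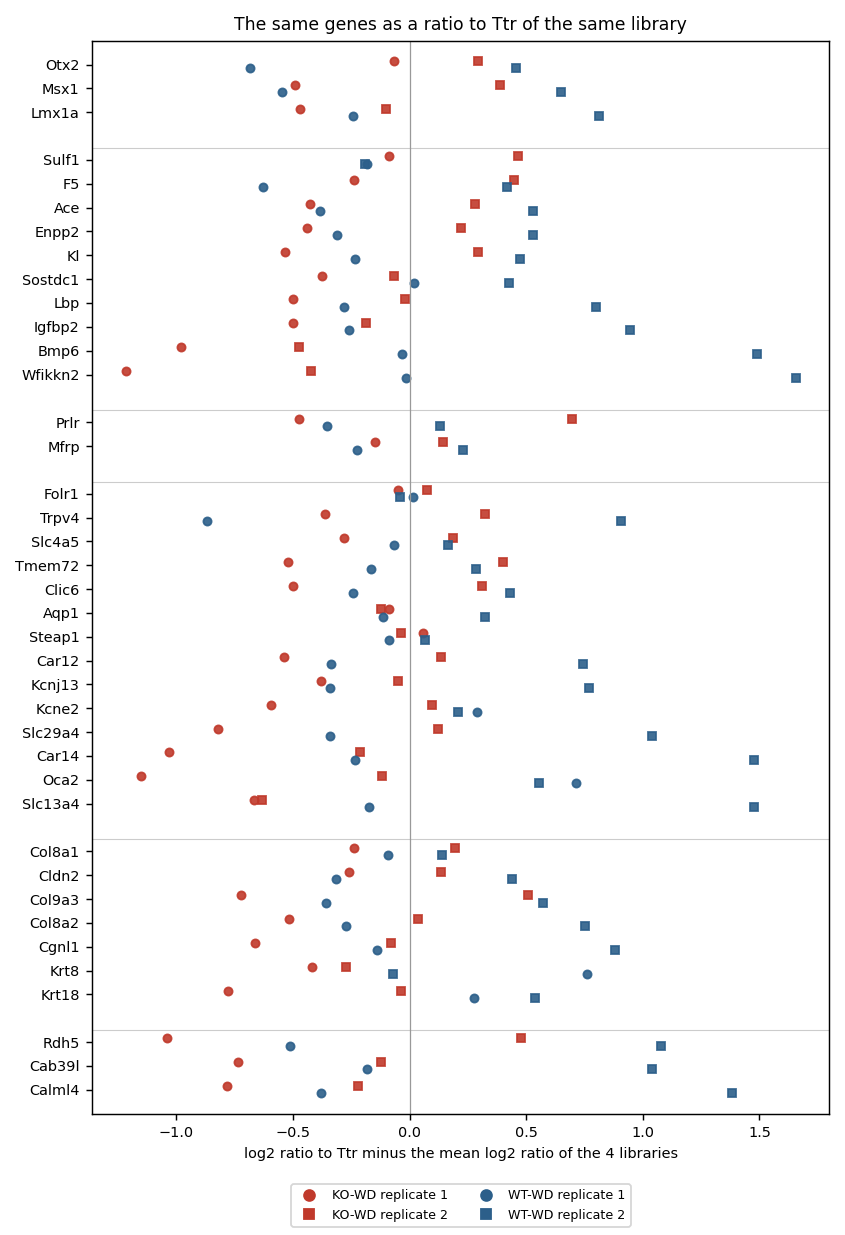
Log2 ratio of each gene to Ttr of the same library, minus the mean of the 4 libraries, with red for KO-WD, blue for WT-WD, circles for replicate 1 and squares for replicate 2. Folr1 and Steap1 stay within narrow bands. WT-WD replicate 2 (blue squares) is rightmost in 29 of the 39 rows and KO-WD replicate 1 (red circles) leftmost in 30. Division by Ttr alone gives that order to a gene with a steady level.

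The 40 genes were represented by 72 RefSeq transcripts, 70 of them tested, and 17 genes had several. Of the tested transcripts, 59 were higher in KO-WD, 43 had both KO-WD libraries above (background 17.1%) and 0 passed over all transcripts (background 0%), with 23 at an unadjusted p under 0.05 (background 5.69%). All 4 Enpp2 transcripts kept the genotypes apart, with log2 differences from 0.66 to 1.33. In other genes the transcripts did not all lie the same way. Transcripts of a gene share most of their sequence and the sources used here do not give the model that divided reads between them, so the values of single transcripts carry an error that the replicate spread alone does not measure.

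Oca2 was the only gene of the set with non-coding transcripts, and these 2 held nearly all of its signal. The coding transcript NM_021879 was at 7.01 and 7.24 units in the KO-WD libraries, against 0.392 and 0.0278 units in the WT-WD libraries, the wild-type values lying under the floor of 3 reads (0.775 and 0.562 units). With coding transcripts alone the log2 difference of Oca2 was 2.76 (adjusted p = 0.144 in limma), against -0.10 for the gene as a whole. The non-coding NR_157031 was at 111.2 and 107.5 units in KO-WD, against 317.8 and 0.461 in WT-WD, and held most of the distance between the wild-type libraries.

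In Kcne2 the signal was split differently between its transcripts. NM_134110 was at 11.1 and 5.05 units in KO-WD, against 0.872 and 0.317 in WT-WD, and took 99.98% and 59.1% of the gene's signal in KO-WD, against 8.56% and 8.65% in WT-WD. The WT-WD shares rest on few reads, since a floor of 3 reads is 0.775 units in WT-WD replicate 1 and 0.562 in replicate 2. In Car14 the transcript NM_001355751 was at 4.85 and 6.37 units in KO-WD, against 17.4 and 20.7 in WT-WD, while NM_011797 was at 29.8 and 26.4 units in KO-WD, against 9.05 and 20.2 in WT-WD. The minor Cgnl1 transcript NM_001304362 was at 11.7 and 12.8 units in KO-WD, against 2.50 and 1.70 in WT-WD. None of these transcripts passed over all transcripts (adjusted p = 0.816 in limma for the Oca2, Kcne2, Cgnl1 and first Car14 transcripts).

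Because the genes were higher together, their promoters were read for the letters that Otx-type homeodomains bind. RefSeq promoters of the build GRCm38.p6, from 250 bases before to 50 bases after a start site, were found for 32 of the 40 genes, in 41 sequences. TAATCC, on either strand (GGATTA on the other), was present in 4 of the 41 (9.76%), against 7.06% of all 32851 promoters. GTAAACA, a forkhead motif (TGTTTAC on the other strand), was present in 1 (2.44%, against 3.65%), and TATAAA, the TATA box (TTTATA on the other strand), in 7 (17.1%, against 13.6%). The promoters with TAATCC are shown 5′ to 3′ on the strand of the gene with the match in capitals, to set the match against the start site in 3 genes with the genotypes apart (Otx2, Ace, Mfrp) and in 1 without (Car14). They are at chr14:48665060-48665359 on the minus strand, chr11:105967698-105967997 on the plus strand, chr9:44101520-44101819 on the plus strand and chr3:95904636-95904935 on the minus strand.
Otx2: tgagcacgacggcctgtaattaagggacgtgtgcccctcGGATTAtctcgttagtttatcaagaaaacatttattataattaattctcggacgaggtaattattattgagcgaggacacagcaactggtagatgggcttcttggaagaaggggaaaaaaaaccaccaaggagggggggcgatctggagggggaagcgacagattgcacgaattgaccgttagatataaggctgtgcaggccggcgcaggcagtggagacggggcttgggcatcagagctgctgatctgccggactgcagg
Ace: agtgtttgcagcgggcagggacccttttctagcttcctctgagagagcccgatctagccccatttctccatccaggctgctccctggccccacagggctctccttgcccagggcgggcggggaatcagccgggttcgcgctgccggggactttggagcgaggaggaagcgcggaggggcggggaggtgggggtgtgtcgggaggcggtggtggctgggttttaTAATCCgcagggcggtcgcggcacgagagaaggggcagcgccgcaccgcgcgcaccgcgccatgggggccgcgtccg
Mfrp: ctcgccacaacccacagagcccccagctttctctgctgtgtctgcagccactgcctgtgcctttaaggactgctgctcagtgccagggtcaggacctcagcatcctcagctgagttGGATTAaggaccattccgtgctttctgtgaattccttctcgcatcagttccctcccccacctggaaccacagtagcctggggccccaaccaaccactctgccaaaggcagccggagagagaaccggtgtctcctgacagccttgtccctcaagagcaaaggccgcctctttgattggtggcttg
Car14: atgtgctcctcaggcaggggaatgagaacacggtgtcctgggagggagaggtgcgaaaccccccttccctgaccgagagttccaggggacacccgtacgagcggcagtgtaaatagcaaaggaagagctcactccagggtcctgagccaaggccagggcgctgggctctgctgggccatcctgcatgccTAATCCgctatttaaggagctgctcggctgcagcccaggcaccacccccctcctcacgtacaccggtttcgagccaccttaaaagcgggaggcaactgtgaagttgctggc
The match begins 211 bases before the start site in Otx2, 27 in Ace, 134 in Mfrp and 61 in Car14. In Ace it shares 2 bases with a TATA box match on the other strand. A match of 6 letters describes the sequence only, and the share among these genes was close to that of all promoters.

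Genes of the surrounding biology were followed in lists that hold none of the 40. Their medians lay nearer to 0, and none of their members passed over all genes (background 0.0637%). Among 21 measured other genes of choroid epithelium, 17 were higher in KO-WD (median 0.36). Both KO-WD libraries were above for 11 of them, against 17.9% of all genes, and 7 had an unadjusted p under 0.05, all higher, against 2.38%. Dsp, counted in both the 11 and the 7, is also in the list of hippocampal neuron markers. Igf2, a growth factor also made in choroid stroma and meninges, averaged 470.6 ± 186.9 units in KO-WD and 607.6 ± 165.9 in WT-WD (SD, n = 2 each). Ezr, the membrane-actin linker ezrin, averaged 223.5 ± 27.4 units in KO-WD and 229.7 ± 9.68 in WT-WD. Ecrg4, a secreted peptide precursor of the choroid plexus named after its value was seen, had 136.3 and 71.95 units in KO-WD, against 53.5 and 31.7 in WT-WD.

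The pumps and exchangers of fluid secretion, which neurons and glia also make, had small differences. Of 22 genes, 15 were higher and 7 lower (median 0.059), and both KO-WD libraries were above for 9, against 17.9% of all genes. An unadjusted p under 0.05 in limma was found for 1 gene, lower in KO-WD (background 5.28%). The list includes Atp1b1, a subunit of the sodium pump, at 2865 ± 35.3 units in KO-WD and 2749 ± 96.7 in WT-WD, and the vesicle protein Vamp2 at 1662 ± 41.3 and 1596 ± 23.4 units in the same order. Of 17 genes of retinoid, thyroid hormone, folate, vitamin C and iron handling, 10 were higher and 7 lower (median 0.084). Trf (transferrin) averaged 484.0 ± 107.9 units in KO-WD and 419.4 ± 85.4 in WT-WD, and the vitamin C transporter Slc23a2 averaged 333.5 ± 0.895 and 314.7 ± 14.4 units in the same order.

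Ependymal and ciliary genes, from the cells that line the ventricle beside the plexus, had 11 of 17 higher in KO-WD (median 0.080). Their summed signal was 228.5 and 198.7 units in KO-WD and 199.2 and 176.5 in WT-WD. Both KO-WD libraries were above for 4 and below for 2, against 17.9% and 18.4% of all genes. Rsph1 alone had an unadjusted p under 0.05 in limma (background 5.28%). It had 27.7 and 23.7 units in KO-WD, against 12.5 and 13.9 in WT-WD. Cfap44 averaged 40.03 ± 3.41 units in KO-WD and 31.0 ± 5.07 in WT-WD, and Rarres2 averaged 22.6 ± 7.48 and 26.2 ± 5.03 units in the same order. Genes of choroid stroma, meninges and fenestrated vessels had 2 of 12 higher in KO-WD (median -0.45) and sums of 976.7 and 573.95 units in KO-WD and 849.4 and 1147 in WT-WD. Dcn (decorin) averaged 134.3 ± 34.1 units in KO-WD and 169.2 ± 24.4 in WT-WD, and Igf2, already given, is in this list too. Aldh1a2 is shared between this list and that of retinoid handling. Of 8 genes of brain vessel endothelium 2 were higher (median -0.36), with Slc2a1, the glucose transporter, at 294.4 ± 22.2 units in KO-WD and 391.4 ± 7.35 in WT-WD, and Flt1 at 142.6 ± 22.5 and 186.6 ± 57.1 units in the same order. An unadjusted p under 0.05 was found for 5 of the 8 (background 5.28%), 2 of them higher in KO-WD. Both KO-WD libraries were below for 4 (background 18.4%) and above for 2 (background 17.9%).

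Oligodendrocyte markers summed to 93590.5 and 84036.5 units in KO-WD and 100785 and 115044 in WT-WD, with all 11 lower on the mean in KO-WD (median -0.41). Mobp alone made up most of each sum, at 81187 and 72698 units in KO-WD and 86394 and 99221 in WT-WD. Both KO-WD libraries were below for 9 of the 11 (background 18.4%), and 7 had an unadjusted p under 0.05 (background 5.28%), shares above those of the choroid genes. Mobp and Mbp, both myelin proteins, averaged 76943 ± 6002 and 7648 ± 496 units in KO-WD and 92808 ± 9070 and 9274 ± 909 units in WT-WD. Tissue next to the hippocampus was also followed. Thalamic and habenular markers had a median of 0.029 over 8 genes, with Rora at 93.0 ± 4.57 units in KO-WD and 106.1 ± 13.9 in WT-WD, and Prkcd at 56.4 ± 15.96 and 51.7 ± 0.28 units in the same order. Cortical markers had a median of -0.012 over 7 genes, with Lamp5 at 100.1 ± 3.499 units in KO-WD and 115.4 ± 3.37 in WT-WD, and Cux2 at 81.3 ± 9.06 and 102.3 ± 5.56 units in the same order. Hippocampal neuron markers had a median of 0.15 over 12 genes, with Mpped1 at 1367 ± 254.6 units in KO-WD and 1199 ± 62.2 in WT-WD, and Cpne7 at 499.0 ± 36.9 and 463.3 ± 21.0 units in the same order. Of these 12, 10 were higher in KO-WD. Both KO-WD libraries were above for 4 (background 17.9%) and below for 0 (background 18.4%). In limma 2 had an unadjusted p under 0.05, both higher in KO-WD (background 2.38%). The listed markers Epcam (choroid epithelium), Mcidas (ependyma), Esm1 (fenestrated endothelium), Gbx2 and Pou4f1 (thalamus and habenula) did not pass the filter on low signal. The part of any of these tissues in the choroid gene values was not tested.

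**Figure D5:**
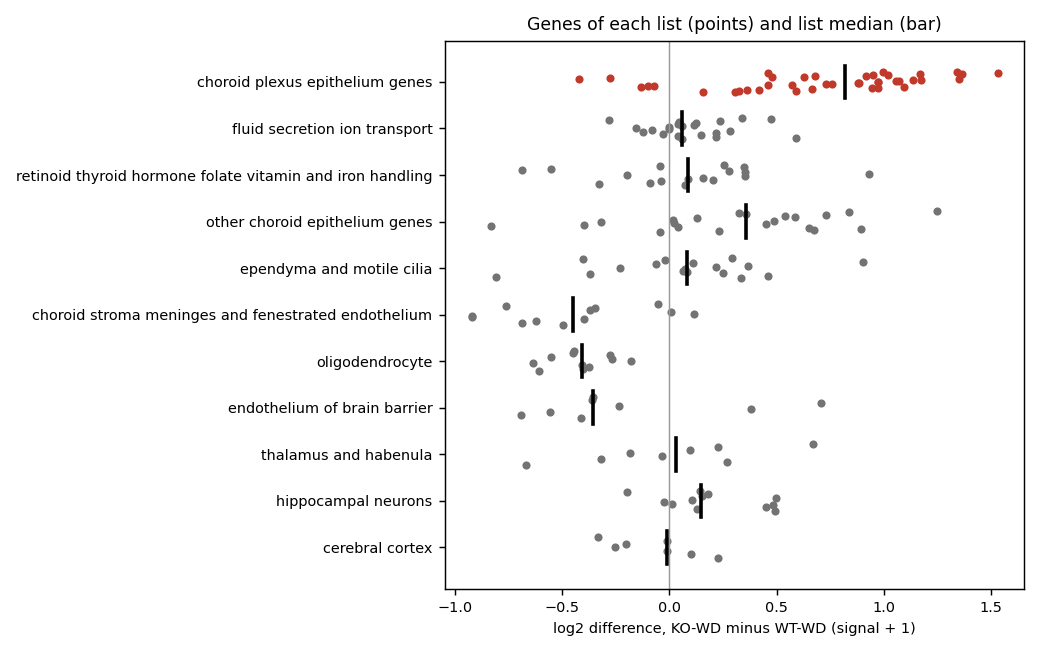
Log2 difference (KO-WD minus WT-WD, of signal + 1) of each gene as a point, with the median of each list as a black bar, for the 40 choroid plexus epithelium genes (red) and the other lists (grey). The median is 0.82 for the 40 genes, 0.36 for other choroid epithelium genes and -0.45 for choroid stroma, meninges and fenestrated endothelium.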

How the data were processed

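Libraries of hippocampal total RNA were made with the Ion kit for total RNA, as the labels' protocols state. STAR, Partek and the mouse build mm39 are named, with no version, in the submitters' processing notes. The authors deposited 1 table of normalized signal per library, with 30108 RefSeq transcripts scaled to nearly the same total of 2.99e+06 units. The sources used here do not give the quantification model, annotation release or use of strand.

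A constant of 0.0001, which appears added to every value, was subtracted. RefSeq's GRCm38.p6 gene table gave symbols for 30073 transcripts, and transcripts were summed to 16148 genes. The step at which low values pile up gave the worth of 1 read. Between 16.1% and 22.6% of transcripts below 20 reads were whole multiples within 0.02 read, so no count model was used. Intervals of reads cover counting error only.

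The 15707 genes that reached 1 unit in 2 or more libraries were fitted in limma 3.58.1 (R 4.3.3) on log2(signal + 1), with trend and robust moderation. Genotype was the sole term, which leaves 2 residual degrees of freedom. P-values were adjusted by Benjamini-Hochberg over all genes tested. The same fit was made after subtracting log2(Ttr + 1) of the library, and for single transcripts. The Ttr-scaled fit was also run on simulated data in which Ttr had no spread of its own. That run therefore cannot measure the error of the real ratios.

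The members, lists and tests were chosen with earlier results of these data known. Values in every library are given for Ttr, for members averaging at least 50 units and for members with an unadjusted p under 0.05. The 2 members with the highest mean are named from each other list. Members named beyond this, the 5 members given with a scaled difference, the transcripts, Ecrg4 and Rsph1 were chosen after their values were seen. Where else in brain a member is made was assigned by hand from general knowledge. Alternatives are in the closing section.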

Additional observations from a re-analysis of the deposited data

How the results depend on the processing

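The median of the 40 genes lay between 0.48 and 1.15 when 1 library was left out, and the median scaled to Ttr between -0.73 and 0.015. Over the 40 genes (38 with the filter at 5 units) the other alternatives (quantile and median-ratio scaling, pseudocounts of 0.1 and 0.5, no filter, a filter at 5 units, no moderation, the replicate block and coding transcripts alone) gave 0.82 to 0.88, and -0.41 to -0.29 scaled to Ttr. The scaled median was -0.032 with 6 genes as the reference. The restricted genes had 0.90 and, scaled to Ttr, -0.28, and the others 0.61 and -0.56. The count of 24 genes with KO-WD above was 24 to 35 without 1 library, where a lone library makes separation easier (background 32.4% to 36.6%). With all 4 libraries it was 12 for the restricted genes and 12 for the others (background 17.9%).

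The count of 10 genes called over all genes was 0 without trend or robust moderation (951 at an unadjusted p under 0.05), 1 with coding transcripts alone and 18 to 93 without 1 library, where the lone library is assumed to vary like the others. The labels do not say whether the replicate numbers pair the libraries. Same-numbered libraries deviated together with a correlation of 0.0378 over all tested genes. With the replicate number as a block 47 of 15707 genes were called, with F5, Ttr and Ace the 3 of the 40 members among them. Scaled to Ttr, 14464 of 15706 genes were called with the block, against 0 without it. Only 12 of the 39 members other than Ttr were among these, a smaller share than that of all genes. Ttr enters every ratio, so these calls are not independent of the difference of Ttr itself. With the mean of 6 restricted genes as the reference 17 genes were called.

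The difference of Oca2 was 2.76 with coding transcripts alone, of Mobp 0 with quantile normalization, and of Enpp2 scaled to the 6 genes 0.098. When 1 library was left out, the sign turned for several differences, with the ranges -0.87 to 0.67 (Oca2), -0.64 to 0.37 (Slc13a4), -0.19 to 0.38 (Prkcd), -0.026 to 0.43 (Trf), -0.17 to 0.081 (Ezr), -0.82 to 0.016 (Igf2), -0.013 to 0.37 (Mpped1) and -0.56 to 0.097 (Rarres2). Scaled to Ttr, the ranges were -0.33 to 0.72 (F5), -0.059 to 0.070 (Folr1) and -0.64 to 0.20 (Enpp2). The causes were not tested.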
